A study of Homo sapiens with 6 samples.

Results

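The 41 mitosis genes are a list of genes that act in G2 phase and mitosis, found by symbol and Entrez gene ID among the 27257 genes with a value in any library. All 41 had counts in every library, and all 41 were among the 16092 genes that passed the filter on low counts. Total RNA was sequenced from U87MG, an established line of human glioblastoma cells, exposed for 24 h either to a control lentivirus (U87MG-control, 3 libraries) or to a lentivirus that expresses LMO2 (U87MG-LMO2, 3 libraries). Both groups are therefore lentivirus-infected cells of 1 line in serum medium, and the study's methods describe LMO2 vectors with the CMV promoter. The comparison asks whether the RNA of these genes differed with forced expression of LMO2, a LIM domain cofactor of transcription. The labels do not say that the replicates were separate cultures, so the p values measure the spread between these libraries, which may be technical.

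LMO2 itself checked the labels. Its normalised read count (CPM, counts scaled to the TMM-adjusted size of the library) was 0.606, 0.802 and 0.378 in U87MG-control and 332.5, 306.5 and 876.4 in U87MG-LMO2 replicates 1 to 3, with a log2 fold change of 9.70 (SE 0.60, edgeR adjusted p 4.13e-04). The U87MG-control libraries held 11428432 to 13537284 expected counts in total and the U87MG-LMO2 libraries 14630627 to 17892955, and the smallest count of any mitosis gene in any library was 37. U87MG-LMO2 replicate 3 stood apart: it was the deepest library, had the most LMO2, and had a TMM factor of 0.929 against 1.01 to 1.02 in the other libraries. Of the glioma line markers, VIM, CD44 and FN1 were high (FPKM of 326.6 or more in every library) and NES was at 6.64 to 8.71 FPKM, whereas S100B, SOX2 and OLIG2 were at or below 0.42 FPKM and GFAP, whose replicate 3 value was unreadable, at or below 0.26 FPKM in the other libraries. The 8 markers of blood, endothelial and epithelial cells were at or below 1.08 FPKM in every library.

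Cells that prepare for mitosis make cyclin B, its kinase CDK1 and a large set of spindle and kinetochore proteins. Many of these genes are silent in G1 and rise together in G2, when the MuvB complex with B-MYB and FOXM1 replaces the repressive DREAM complex at a promoter element named the cell cycle genes homology region (CHR), often with CCAAT boxes bound by NF-Y nearby. Their summed RNA is widely read as a sign of how many cells of a culture are dividing, and in bulk RNA fewer dividing cells and less RNA per cell cannot be told apart.

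None of the 41 genes passed the test between U87MG-LMO2 and U87MG-control. The edgeR test called 0 higher and 0 lower at an adjusted p under 0.05, where 4.72% of all tested genes were called higher and 2.75% lower, and DESeq2 and limma on FPKM also called 0. At an unadjusted p under 0.05, 4 genes were lower (ASPM, CCNB1, DLGAP5 and KIF14), which is 9.76% of the list against 11.9% of all tested genes, and 0 were higher against 13.8%. The smallest adjusted p was 0.163, for ASPM. The median log2 fold change was -0.134, beside -0.0108 over all tested genes. Of the 41 genes, 34 lay below 0 and 7 above, where 51.1% of all tested genes lay below 0. The 95% interval of the log2 fold change, which takes the U87MG-LMO2 libraries together, lay between -1 and 1 for 37 of the 41 genes. A change of the group above 2-fold thus lay outside the interval for most of the list, which does not hold for each library alone. The exceptions were HMMR, CCNB1, DLGAP5 and KIF14, whose intervals reached below -1.

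The libraries of U87MG-LMO2 did not move together. The summed CPM of the 41 genes was 4533, 4974 and 4965 in U87MG-control and 5178, 5210 and 2957 in U87MG-LMO2 replicates 1 to 3. Replicates 1 and 2 thus held 107% and 108% of the control mean and replicate 3 held 61.3%. Measured as log2 CPM minus the control mean, the median gene of the list was at 0.114 in replicate 1, 0.097 in replicate 2 and -0.888 in replicate 3, while the median over all tested genes was 0.0070, -0.0028 and -0.0112. Replicate 3 was the lowest of the 6 libraries for 38 of the 41 genes (92.7%), against 28.3% of all tested genes, and the highest for 0, against 26.6%. It lay below the other 5 libraries by more than their whole range for 31 genes (75.6%), against 9.65% of all tested genes. For 16 of the 41 genes replicate 3 lay below -1 from the control mean on the log2 scale, against 3.57% of all tested genes. The 3 genes that were not lowest there, CDC20, BUB3 and PLK1, were lowest in U87MG-control replicate 1. These are descriptions of 1 library and carry no test.

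**Figure D1:**
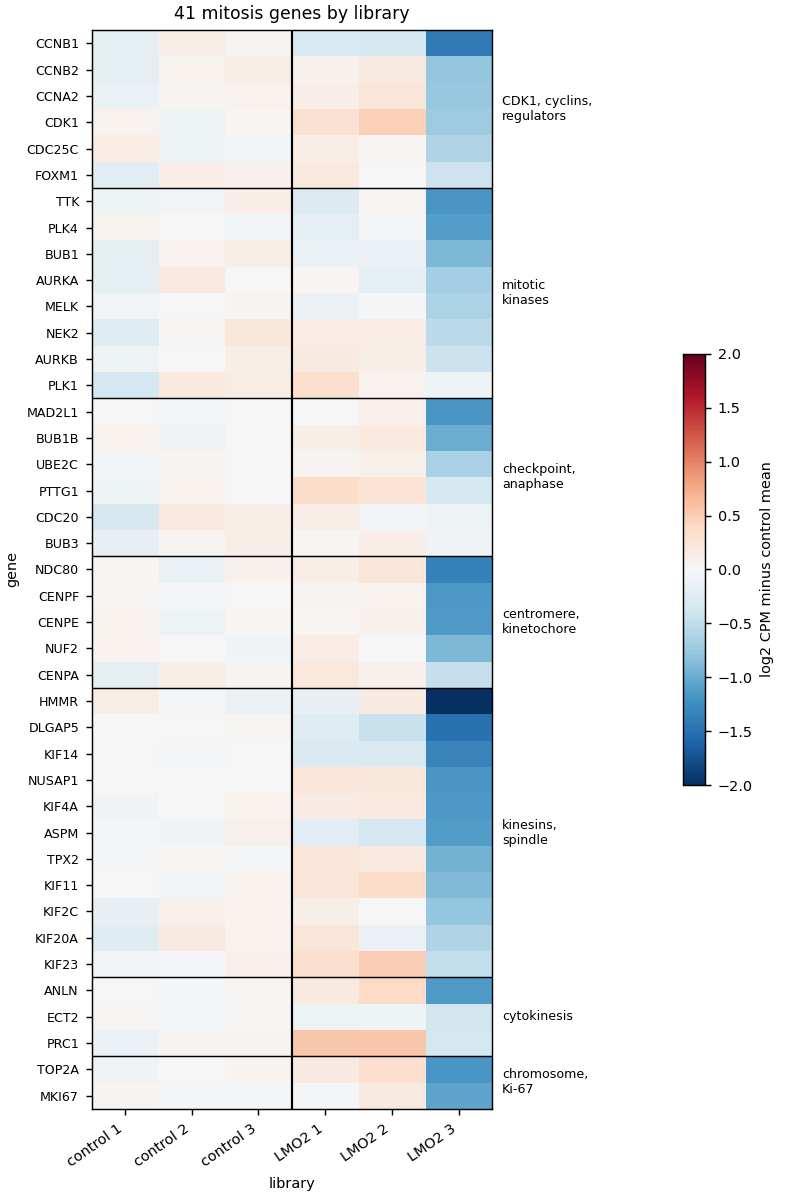
Heat map of the 41 mitosis genes (rows, grouped by role) in the 6 libraries (columns), where colour gives log2 CPM minus the mean of the 3 U87MG-control libraries, blue for lower and red for higher. The column of U87MG-LMO2 replicate 3 is blue in every row, from -0.07 for BUB3 to -1.99 for HMMR, and the columns of replicates 1 and 2 are mostly pale red or near white.

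The promoters show what the list shares in sequence. RefSeq promoter windows of assembly GRCh38.p14, from 250 bases before to 50 bases after the start of the gene, were matched for 35 of the 41 genes (the unmatched genes were AURKA, BUB3, FOXM1, TPX2, TTK and UBE2C). They were searched on both strands for TTTGAA and TTTAAA, the letters of the CHR, and for the CCAAT box of NF-Y. The TTTGAA form was found in 68.6% of the 35 windows and in 15.4% of the 27305 windows of all genes, TTTAAA in 14 of the 35 and in 12.3% of all, and CCAAT in 74.3% and 35.7%. A CHR match of either kind together with CCAAT was found in 62.9% of the list and 9.49% of all genes. A CHR match that starts within 60 bases before to 30 bases after the start was also found in 62.9%, against 7.37% of all genes. The 6 stretches printed here, 150 bases before to 30 bases after the start, belong to genes that hold a CHR match, the 3 with the lowest p among those with a log2 fold change below 0 and the 3 among those above 0. Capitals mark the matches of these motifs on either strand, and the printed strand is that of the gene.
ASPM, chr1:197146640-197146819, minus strand: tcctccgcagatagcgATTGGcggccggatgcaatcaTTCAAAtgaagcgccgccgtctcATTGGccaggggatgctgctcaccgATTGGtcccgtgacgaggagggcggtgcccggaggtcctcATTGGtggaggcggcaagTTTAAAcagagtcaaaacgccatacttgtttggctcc
CCNB1, chr5:69167000-69167179, plus strand: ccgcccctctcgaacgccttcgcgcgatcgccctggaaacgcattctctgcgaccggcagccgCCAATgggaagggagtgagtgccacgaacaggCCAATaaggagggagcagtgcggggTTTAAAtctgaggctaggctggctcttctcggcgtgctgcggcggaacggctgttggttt
DLGAP5, chr14:55191556-55191735, minus strand: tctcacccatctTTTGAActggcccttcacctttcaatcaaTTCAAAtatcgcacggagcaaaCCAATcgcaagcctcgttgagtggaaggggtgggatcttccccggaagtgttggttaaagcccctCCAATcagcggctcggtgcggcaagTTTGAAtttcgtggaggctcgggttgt
PRC1, chr15:90994506-90994685, minus strand: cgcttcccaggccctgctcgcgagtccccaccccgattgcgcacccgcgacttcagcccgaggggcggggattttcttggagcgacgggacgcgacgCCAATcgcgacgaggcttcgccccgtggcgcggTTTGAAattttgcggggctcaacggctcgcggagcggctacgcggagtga
PTTG1, chr5:160421705-160421884, plus strand: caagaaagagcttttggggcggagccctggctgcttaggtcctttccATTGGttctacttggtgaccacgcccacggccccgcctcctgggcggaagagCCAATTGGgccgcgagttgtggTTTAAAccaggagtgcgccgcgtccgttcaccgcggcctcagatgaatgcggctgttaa
KIF23, chr15:69414199-69414378, plus strand: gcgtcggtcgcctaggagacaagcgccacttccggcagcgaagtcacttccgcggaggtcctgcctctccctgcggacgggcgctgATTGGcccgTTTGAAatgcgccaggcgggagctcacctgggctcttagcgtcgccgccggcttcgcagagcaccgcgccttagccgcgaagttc
All 6 hold a CHR match because they were chosen for one, and none of the 6 genes passed the test with all 6 libraries. In CCNB1 and PTTG1 a TTTAAA starts 30 and 29 bases before the start, and in PRC1 and KIF23 a TTTGAA starts 20 and 55 bases before it. ASPM has a TTTAAA 7 bases before the start and 4 CCAAT boxes in reverse, and DLGAP5 holds 3 TTTGAA matches, the nearest 3 bases after the start. In PTTG1 a forward and a reverse CCAAT overlap in CCAATTGG. A match is a run of letters and not a measured binding site.

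The 6 genes of CDK1, its cyclins and their regulators set the switch into mitosis. All 6 were lowest in replicate 3, where they lay from -0.41 to -1.41 from the control mean on the log2 scale. CCNB1 (891) encodes cyclin B1, which activates CDK1 at mitotic entry. It was at 119.4, 148.9 and 142.2 CPM in U87MG-control replicates 1 to 3 and at 110.5, 106.4 and 51.2 CPM in U87MG-LMO2 replicates 1 to 3. All 3 U87MG-LMO2 libraries lay below every control, replicates 1 and 2 closely and replicate 3 far below. The log2 fold change of CCNB1 was -0.62 (SE 0.26, edgeR adjusted p 0.173), and it was -0.34 without replicate 3. CDK1 (983), the kinase itself, gave the opposite picture in the first 2 libraries. Its values were 28.8, 25.5 and 28.0 CPM in U87MG-control and 33.7, 38.3 and 16.7 CPM in U87MG-LMO2. Replicates 1 and 2 lay above all controls and replicate 3 below all of them, so the groups overlapped, with a log2 fold change of 0.11 (SE 0.26, edgeR adjusted p 0.828). CCNB2 and CCNA2, cyclins B2 and A2, were at 58.4% and 59.3% of their control means in replicate 3. CDC25C, a phosphatase that removes the inhibitory phosphates of CDK1, was at 64.9%, and FOXM1, the transcription factor of G2 genes, was at 74.6%. In replicates 1 and 2 these 4 genes lay between -0.001 and 0.24 from the control mean on the log2 scale.

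For the 8 mitotic kinases the median log2 fold change was -0.249, and 7 of them were lowest in replicate 3. BUB1 (699), a kinetochore kinase of the spindle checkpoint, was at 67.04, 79.9 and 83.0 CPM in U87MG-control and at 70.2, 70.2 and 40.96 CPM in U87MG-LMO2. Replicates 1 and 2 lay among the controls and replicate 3 below them (log2 fold change -0.34, SE 0.20, edgeR adjusted p 0.314). PLK4 (10733), which starts the duplication of the centriole, was at 29.8, 28.3 and 27.2 CPM in U87MG-control and at 24.9, 27.6 and 13.2 CPM in U87MG-LMO2. Replicate 2 lay just inside the range of the controls and replicate 3 was the outlying library (log2 fold change -0.38, SE 0.24, edgeR adjusted p 0.351). MELK (9833), the maternal embryonic leucine zipper kinase, was at 103.4, 107.8 and 111.4 CPM in U87MG-control and at 99.2, 105.1 and 69.0 CPM in U87MG-LMO2. Its replicate 2 again lay within the controls (log2 fold change -0.24, SE 0.15, edgeR adjusted p 0.359). TTK (7272), also known as MPS1, recruits checkpoint proteins to unattached kinetochores. It was at 22.2, 22.8 and 26.0 CPM in U87MG-control and at 19.6, 24.2 and 10.5 CPM in U87MG-LMO2. Replicate 1 lay a little below the controls, replicate 2 inside them and replicate 3 far below (log2 fold change -0.39, SE 0.26, edgeR adjusted p 0.381).

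AURKA, AURKB, PLK1 and NEK2 are kinases of the centrosome, centromere and spindle. AURKA (6790), the centrosomal Aurora kinase, was at 149.4, 194.3 and 170.0 CPM in U87MG-control and at 174.5, 148.2 and 106.8 CPM in U87MG-LMO2. The controls of AURKA spread more widely than replicates 1 and 2, and replicate 3 lay below all 5 of these libraries (log2 fold change -0.26, SE 0.18, edgeR adjusted p 0.396). PLK1 (5347), the polo kinase of mitotic entry and spindle assembly, was at 223.0, 328.1 and 317.5 CPM in U87MG-control and at 360.2, 299.4 and 269.7 CPM in U87MG-LMO2. The lowest library of PLK1 was U87MG-control replicate 1, and the log2 fold change was 0.10 (SE 0.17, edgeR adjusted p 0.750). AURKB, the Aurora kinase of the chromosomal passenger complex, was at 73.7% of its control mean in replicate 3, and NEK2, which splits the centrosomes, was at 68.6%.

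The 6 genes of the spindle checkpoint and anaphase differed among themselves in replicate 3. MAD2L1 and BUB1B, whose proteins MAD2 and BUBR1 hold back the anaphase-promoting complex, were at 44.5% and 50.3% of their control means in replicate 3. UBE2C, the ubiquitin-conjugating enzyme of that complex, was at 64.0%, and PTTG1, which encodes the securin that is destroyed at anaphase, at 78.0%. By contrast CDC20, the activator of the complex, was at 92.2% and BUB3, a partner of BUB1 that is also expressed outside mitosis, was at 95.1%, the closest to the controls of all 41 genes. CDC20 was at 187.3, 268.8 and 256.9 CPM in U87MG-control and at 258.5, 224.9 and 219.1 CPM in U87MG-LMO2, so replicate 3 lay within the controls. After the correction for GC content given below, replicate 3 was the lowest library for CDC20 too. BUB3 was at 131.0, 152.5 and 159.2 CPM in U87MG-control and at 150.5, 160.8 and 140.3 CPM in U87MG-LMO2, again with replicate 3 inside the range of the controls. The log2 fold changes were -0.02 for CDC20 and 0.03 for BUB3.

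The 5 centromere and kinetochore genes were all lowest in replicate 3. NDC80 and NUF2, which form the microtubule-binding arm of the kinetochore, were at 38.8% and 52.8% of their control means there. CENPE, a kinetochore motor, was at 45.2%, CENPF, a large kinetochore protein of G2 and mitosis, at 45.1%, and CENPA, the histone H3 variant of centromeres, at 71.95%. In replicates 1 and 2 the 5 genes lay between -0.01 and 0.24 from the control mean on the log2 scale.

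The 11 genes of kinesins and spindle assembly held the lowest log2 fold change of the list, -0.63 for DLGAP5, and the lowest replicate 3 value relative to the controls, that of HMMR. ASPM (259266), which focuses microtubules at the spindle poles, was at 78.0, 75.8 and 85.1 CPM in U87MG-control and at 68.9, 62.1 and 36.6 CPM in U87MG-LMO2. The groups did not overlap, and replicate 3 lay farthest below. Its log2 fold change was -0.51 (SE 0.21, edgeR adjusted p 0.163), and -0.28 without replicate 3. DLGAP5 (9787), also named HURP, stabilises the microtubules that reach the chromosomes. It was at 42.7, 42.7 and 43.6 CPM in U87MG-control and at 36.4, 31.5 and 15.2 CPM in U87MG-LMO2. The 3 controls were within 1 CPM of each other and every U87MG-LMO2 library lay below them (log2 fold change -0.63, SE 0.27, edgeR adjusted p 0.177). KIF14 (9928), a kinesin of the central spindle, was at 28.6, 27.9 and 28.6 CPM in U87MG-control and at 23.2, 23.3 and 11.3 CPM in U87MG-LMO2. Replicates 1 and 2 of KIF14 were nearly equal and below the controls, and replicate 3 was lower again (log2 fold change -0.56, SE 0.25, edgeR adjusted p 0.191).

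The other 8 genes of this group lay within or above the controls in replicates 1 and 2, except HMMR in replicate 1, and below them in replicate 3. HMMR, a spindle and hyaluronan-binding protein, had the lowest replicate 3 value of the list, 24.0% of its control mean, from 37 counts. NUSAP1, which bundles spindle microtubules, was at 44.3%, KIF4A, a chromosome-bound kinesin, at 44.98%, and TPX2, the activator of Aurora A, at 52.1%. KIF11, the motor that pushes the spindle poles apart, was at 53.9%, KIF2C, a depolymerising kinesin, at 58.5%, KIF20A, a kinesin of cytokinesis, at 65.2%, and KIF23, the motor of the centralspindlin complex, at 70.7%.

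Of the 3 cytokinesis genes, ECT2 was the fifth gene whose groups did not overlap, after ASPM, CCNB1, DLGAP5 and KIF14. In all, 5 of the 41 genes (12.2%) had every U87MG-LMO2 library below every control, against 16.6% of all tested genes, and 0 had every library above, against 17.5%. ECT2 (1894), the exchange factor that activates RhoA at the cleavage furrow, was at 133.4, 128.6 and 133.7 CPM in U87MG-control and at 123.6, 124.5 and 102.1 CPM in U87MG-LMO2. The distance of replicates 1 and 2 from the lowest control was small (log2 fold change -0.18, SE 0.11, edgeR adjusted p 0.331). PRC1, which cross-links the microtubules of the spindle midzone, had the highest log2 fold change of the list, 0.30 (SE 0.22, edgeR adjusted p 0.414). PRC1 was at 103.2, 115.5 and 116.0 CPM in U87MG-control and at 161.4, 163.9 and 87.2 CPM in U87MG-LMO2. Replicates 1 and 2 of PRC1 were far above the controls and replicate 3 was below them. ANLN, the scaffold protein anillin of the contractile ring, was at 45.6% of its control mean in replicate 3 and above every control in replicates 1 and 2.

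MKI67 (4288), which encodes the proliferation marker Ki-67, was at 870.4, 820.5 and 822.5 CPM in U87MG-control and at 818.9, 953.1 and 405.3 CPM in U87MG-LMO2. Replicate 2 was the highest library and replicate 3 the lowest, at 48.4% of the control mean. The log2 fold change of MKI67 was -0.21 (SE 0.26, edgeR adjusted p 0.654). TOP2A (7153), the topoisomerase that untangles replicated chromosomes, was at 196.4, 206.6 and 212.8 CPM in U87MG-control and at 233.6, 258.2 and 91.7 CPM in U87MG-LMO2. Both of the first 2 replicates exceeded all controls, and replicate 3 was at 44.7% of the control mean (log2 fold change -0.08, SE 0.31, edgeR adjusted p 0.897). Per length of transcript, the levels of the list in U87MG-control ran from 202.3 ± 8.04 FPKM (SD, n = 3) for UBE2C to 2.30 ± 0.136 FPKM for CENPE. Replicate 3 was the lowest library for both. The expected counts of 12 of the 41 genes (AURKA, BUB1B, DLGAP5, ECT2, FOXM1, KIF11, KIF14, KIF4A, MELK, NEK2, NUSAP1 and PTTG1) were not whole to within 0.005 in at least 1 library, as happens where reads are shared between genes, and these values are uncertain to that extent.

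**Figure D2:**
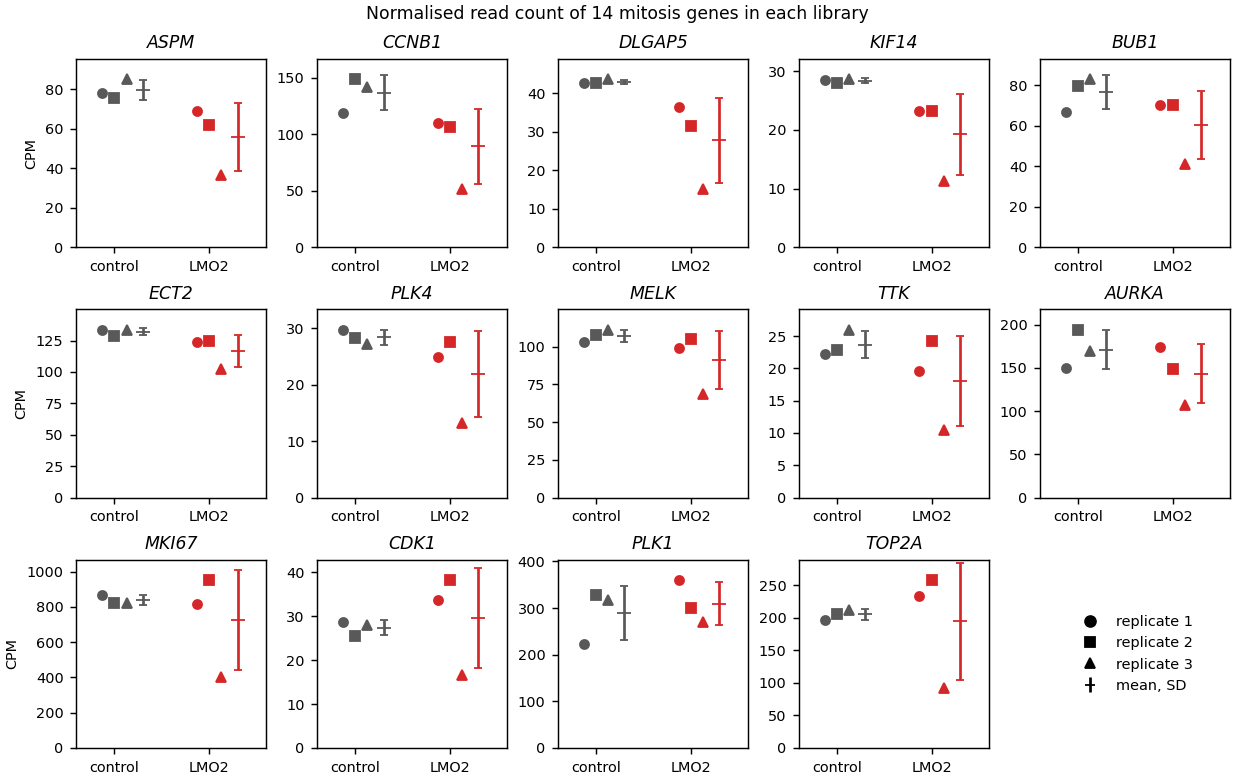
CPM (linear axis from 0) of 14 mitosis genes in each library, with circles, squares and triangles for replicates 1, 2 and 3, grey for U87MG-control and red for U87MG-LMO2, and a bar for the mean and SD of the 3 libraries. The triangle of U87MG-LMO2 is the lowest point in every panel except PLK1, where the lowest point is U87MG-control replicate 1 at 223.0 CPM.

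Without U87MG-LMO2 replicate 3 the picture changed side. The median log2 fold change of the list turned from -0.134 to 0.0808, beside -0.00483 over all genes. In that fit 31 of the 41 genes lay above 0, against 49.3% of all tested genes. The edgeR test on the remaining 5 libraries called 5 genes higher, 12.2% of the list against 7.97% of all tested genes, and 1 lower, 2.44% against 6.72%. The genes called higher in that fit were PRC1 (log2 fold change 0.54, SE 0.09, adjusted p 0.00389), KIF23 (0.40, adjusted p 0.0184), CDK1 (0.39, adjusted p 0.0359), PTTG1 (0.32, adjusted p 0.0384) and KIF11 (0.30, adjusted p 0.0453). The gene called lower was DLGAP5 (-0.34, SE 0.10, adjusted p 0.0483). This fit left out the library that was lowest for 38 of the 41 genes, so its calls are descriptions and no independent support. No mitosis gene was called when any other library was left out. The median SE of the 41 log2 fold changes was 0.227 with all 6 libraries and 0.0989 without replicate 3. With the first 2 U87MG-LMO2 libraries set beside the controls, 14 genes (34.1%) lay above every control in both, against 24.3% of all tested genes. They were PRC1, KIF23, CDK1, PTTG1, KIF11, ANLN, BUB1B, CCNA2, CENPF, KIF4A, NDC80, NUSAP1, TOP2A and TPX2. The same 2 libraries lay below every control for 5 genes (12.2%), against 23.9%. PRC1, the gene with the smallest adjusted p in that fit, was thus 0.53 and 0.56 above the control mean in replicates 1 and 2 on the log2 scale and 0.35 below it in replicate 3.

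**Figure D3:**
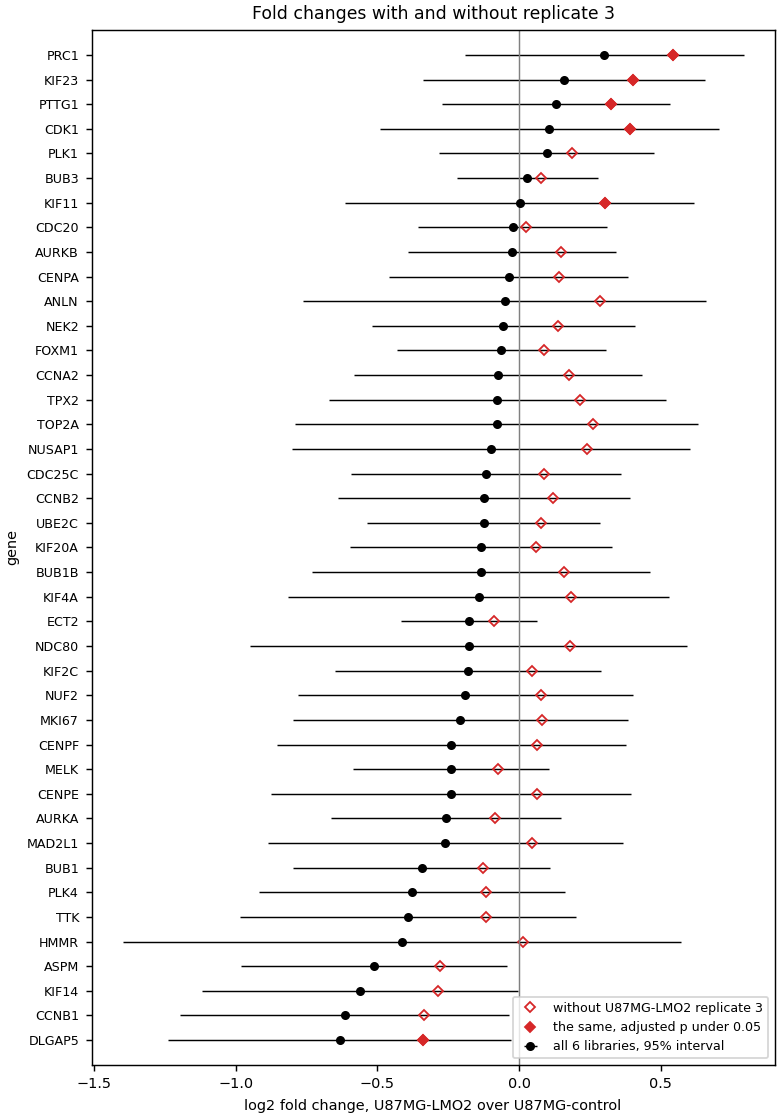
Log2 fold change of U87MG-LMO2 over U87MG-control for each of the 41 mitosis genes, with all 6 libraries (black points, with 95% intervals) and without U87MG-LMO2 replicate 3 (red diamonds, filled where the edgeR adjusted p was under 0.05). The black points run from -0.63 for DLGAP5 to 0.30 for PRC1 with none called, every red diamond lies to the right of its black point, and 6 diamonds are filled.

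The values of replicate 3 followed the GC content of the transcripts, for the list and for all genes. Measured on GENCODE transcripts, the median GC content was 42.3% for the 41 genes (from 35.3% to 57.9%) and 48.3% for the tested genes. In replicate 3 the median tested gene lay at -0.38 from the control mean for transcripts below 40% GC, at -0.24 from 40% to 45%, at -0.05 from 45% to 50% and at 0.23 from 50% upwards, on the log2 scale. The mitosis genes of the same ranges had medians of -1.12 (12 genes), -0.94 (14 genes), -0.61 (9 genes) and -0.43 (6 genes), each below that of all tested genes. Across the 41 genes, Pearson's r between GC content and the replicate 3 value was 0.622, and 0.198 once the trend of each library on GC content had been removed; these points share 1 library, and genes are not independent replicates. After that correction the median mitosis gene was at -0.661 in replicate 3, and 39 of the 41 genes lay below the control mean, where 49.8% of all tested genes did. Replicate 3 was then the lowest library for 37 genes (90.2%), against 25.4% of all tested genes. The genes above the control mean after the correction were BUB3 (0.20) and ECT2 (0.01). With the correction the replicate 3 value moved from -0.10 to -0.36 for CDC20 (57.9% GC) and from -0.08 to -0.32 for PLK1 (57.1% GC). Replicate 3 was then the lowest library for CDC20. What lowered the mitosis genes in replicate 3 was not tested.

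**Figure D4:**
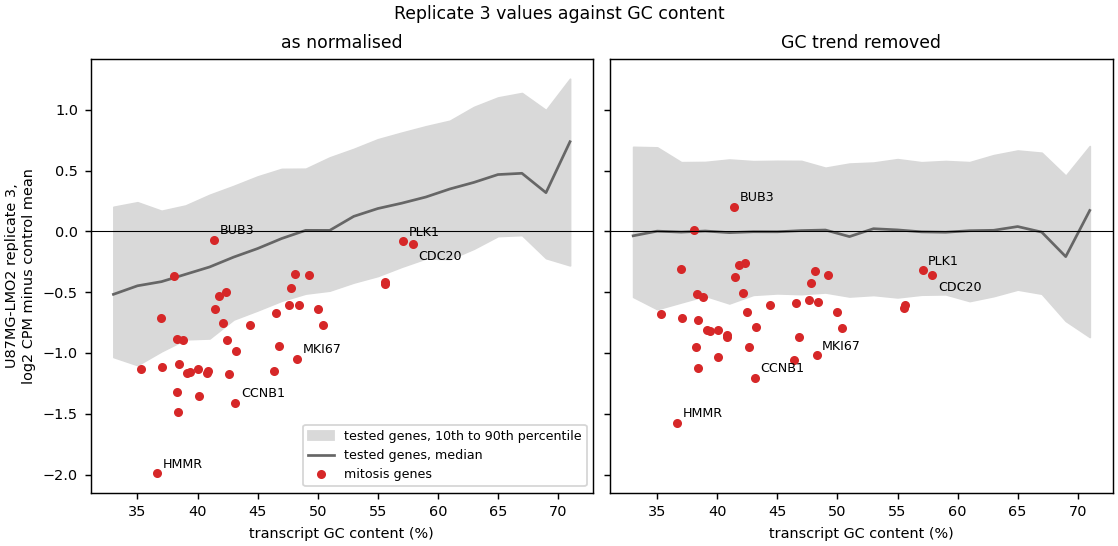
Log2 CPM of U87MG-LMO2 replicate 3 minus the control mean, against transcript GC content in percent, as normalised (left) and after removing each library's GC trend (right). The grey line and band give the median and the 10th to 90th percentile of all tested genes and red points the 41 mitosis genes, whose median is -0.888 on the left and -0.661 on the right, below the grey line in both panels.

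The other genes of the cell cycle were taken from 5 further lists, whose calls stand beside the 4.72% of all tested genes called higher and the 2.75% called lower. Of 72 other mitotic genes tested, 2 were called higher and 0 lower. They were PKMYT1 (9088), the inhibitory kinase of CDK1, with a log2 fold change of 0.75 (SE 0.16, edgeR adjusted p 0.0322), and CENPT (80152), a kinetochore protein, with 0.50 (SE 0.12, edgeR adjusted p 0.0451). At an unadjusted p under 0.05 there were 6 of the 72, both directions together. This is a smaller share than over all tested genes, of which 11.9% were lower and a further 13.8% higher. DESeq2 called 1 of the 72 lower. PKMYT1 was at 64.2, 81.2 and 83.3 CPM in U87MG-control and at 137.6, 146.7 and 100.5 CPM in U87MG-LMO2, above every control in all 3 libraries. Replicate 3 was the lowest library for 84.7% of this list, with a median of -0.572 from the control mean on the log2 scale. The 50 replication genes behaved likewise, lowest in replicate 3 for 82.0% with a median of -0.525. The main edgeR fit called none of them higher or lower. DESeq2 called 1 lower, as did edgeR with DESeq2 size factors, without the filter, or with at least 10 counts in every library. At an unadjusted p under 0.05 there were 5 of the 50, both directions together, again a smaller share than over all tested genes.

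The lists of regulators were closer to the controls in replicate 3 than the other mitotic genes and the replication genes, but were also lowered there. Replicate 3 was the lowest library for 61.9%, 45.5% and 46.7% of their tested genes, in the order given here, against 28.3% of all tested genes. Of 21 tested genes of the anaphase-promoting complex and mitotic exit, FZR1 (51343), the G1 activator of the complex, was called higher (0.44, SE 0.09, edgeR adjusted p 0.0263). PPP2R2A (5520), a regulatory subunit of the PP2A phosphatase, and CDC26 (246184), a subunit of the complex, were called lower (-0.47 and -0.57, edgeR adjusted p 0.0261 and 0.0343). The median of that list in replicate 3 was -0.261. Both directions together, 5 of the 21 had an edgeR unadjusted p under 0.05, close to the share over all tested genes. Of 22 tested genes of MuvB, the E2F factors and NF-Y, 0 were called higher and 1 lower, E2F5 (1875, -1.15, edgeR adjusted p 0.0287). DESeq2 called 1 higher, as did edgeR with DESeq2 size factors, without the filter, or with at least 10 counts in every library. At an unadjusted p under 0.05 there were 3 of the 22, both directions together. This is a smaller share than over all tested genes, of which 11.9% were lower and a further 13.8% higher. The median of that list in replicate 3 was -0.207. Of 15 tested G1 cyclins and CDK inhibitors, CDKN2D (1032), the inhibitor p19 of CDK4 and CDK6, rose, from 13.9, 10.7 and 11.9 CPM to 26.7, 27.4 and 24.2 CPM. All 3 U87MG-LMO2 libraries of CDKN2D were about alike and above every control (log2 fold change 1.10, SE 0.14, edgeR adjusted p 0.00501), replicate 3 included. GADD45A (1647), a stress-induced growth arrest gene, was called higher (0.47, edgeR adjusted p 0.0448), and CCNG1 (900), a p53-induced cyclin, was called lower (-0.80, edgeR adjusted p 0.0108). Both directions together, 5 of the 15 had an edgeR unadjusted p under 0.05, a larger share than over all tested genes. The median of the G1 list in replicate 3 was -0.248. Among the 9 calls named from the other lists, CDKN2D alone was kept whichever of the 6 libraries was left out and after the GC correction. Its edgeR adjusted p was at most 0.0386 in these fits.

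**Figure D5:**
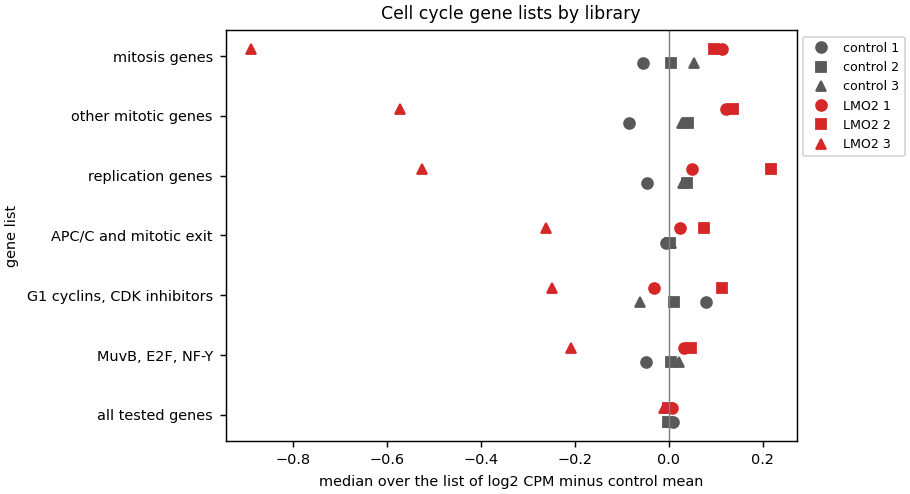
Median over each of 6 cell cycle gene lists, and over all tested genes, of log2 CPM minus the control mean, with grey symbols for the U87MG-control libraries, red symbols for U87MG-LMO2, and circle, square and triangle for replicates 1, 2 and 3. The red triangle lies farthest left for the mitosis genes (-0.888), then the other mitotic genes (-0.572) and the replication genes (-0.525), and at -0.0112 for all tested genes.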

How the data were processed

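For each of the 6 libraries the authors deposited a table of expected counts, which are estimated reads per gene that are not normalised, and of FPKM values, scaled to gene length and library. The submitters' processing notes name Bowtie2, BWA and GRCh38.p12 without a role, and the counting program is not given in the sources used here. A deposited comparison table holds gene symbols, group means of FPKM, a log2 ratio and a probability. Of these the symbols were used to find the listed genes and the means to find damaged values. The table of U87MG-LMO2 replicate 3 had 3 unreadable lines, and 132 genes (0.35% of the control counts), none of them a mitosis gene, were left out.

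Expected counts were rounded and tested with edgeR 4.0.16 under R 4.3.3 (filterByExpr, TMM, the 2-sided quasi-likelihood test of glmQLFTest without a block) over 16092 genes from all 6 libraries. A gene was called when its Benjamini-Hochberg adjusted p was under 0.05. CPM used TMM-adjusted library sizes, and log2 CPM a prior count of 2. Total expected counts were 11428432 to 17892955 per library. Listed symbols were matched to Entrez gene IDs through the symbols of the deposited comparison table and a RefSeq gene table. CDKN2A and CDKN2C, on the list of CDK inhibitors, were not analysed here. GC content came from GENCODE v29 transcripts, known for 89.8% of the tested genes and for all 41 mitosis genes, and trends were removed by lowess (span 0.3) in each library.

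The members and lists were chosen with earlier results of these data known, so no list was tested as a whole. All 41 genes were named. Values in every library, fold change, SE and adjusted p were given for the 10 genes with the lowest p, since none was called, and for MKI67, CDK1, CCNB1, AURKA, PLK1 and TOP2A. In each other list up to 2 called genes per direction were named. The library values of PRC1, CDC20 and BUB3 were added after their values were seen. Alternatives were DESeq2 1.42.0, its size factors, upper-quartile factors, no filter, at least 10 counts in every library, limma 3.58.1 on log2(FPKM + 1) and log2(FPKM + 0.1), a block on the replicate number, the GC correction and leaving out each library. The edgeR test was tested on simulated data for this comparison (16092 genes, 200 changed): of the genes changed 4-fold it recovered 97%, of the genes changed 2-fold 57%, and false calls made up 6.67%. The simulated libraries of a group were drawn independently from the same gene means. They held no joint shift of many genes in a single library and no GC trend, so these rates do not cover such features of the real libraries.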

Additional observations from a re-analysis of the deposited data

How the results depend on the processing

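At this depth the smallest count of a mitosis gene in any library was 37, for HMMR. The count of mitosis genes called stayed at 0 under DESeq2, other size factors, other filters, both limma fits, the replicate block and the GC correction. It ranged from 0 to 5 higher and from 0 to 1 lower across the 6 fits that left out a library, and the calls came without U87MG-LMO2 replicate 3. The median log2 fold change ranged from -0.289 to 0.0808 across these fits, above 0 only without that replicate, and was -0.229 and -0.22 in limma on log2(FPKM + 0.1) and log2(FPKM + 1). Replicate 3 was lowest for 38 genes in FPKM and 39 in counts scaled to the total count, both chosen after seeing the data.

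Of all tested genes, DESeq2 called 681 lower. Leaving out a library gave 102 to 1307 higher and 42 to 1102 lower, the highest without U87MG-LMO2 replicate 3, and of the other cell cycle lists 1 to 24 higher and 0 to 6 lower, where 5 and 4 were called with all libraries. The GC correction left 1 higher and 2 lower in those lists, and either limma fit left 1 higher. The correlations of the deviations of same-numbered libraries over genes were -0.117, -0.003 and -0.041, which show no pairing by replicate number. They cannot exclude a pairing, since the U87MG-LMO2 deviations were taken from a mean that includes the outlying replicate 3. With the replicate block, 387 genes were higher and 189 lower, with 1 and 2 in the other lists. The causes were not tested.

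Several log2 fold changes of mitosis genes changed sign. After the GC correction they were 0.072 for TOP2A, 0.041 for CCNA2, 0.003 for NUSAP1, 0.087 for ANLN, 0.023 for ECT2, 0.069 for NEK2 and -0.028 for PLK1. In limma on log2(FPKM + 0.1) and log2(FPKM + 1), CDK1 was -0.019 and -0.010 and KIF11 was -0.135 and -0.117, and with the block KIF11 was -0.085. Across the 6 fits that left out a library, the genes that changed sign with their highest value without U87MG-LMO2 replicate 3 were ANLN -0.338 to 0.287, AURKB -0.134 to 0.147, BUB1B -0.338 to 0.157, CCNA2 -0.261 to 0.176, CCNB2 -0.293 to 0.118, CDC25C -0.257 to 0.086, CDK1 -0.122 to 0.393, CENPA -0.167 to 0.142, CENPE -0.438 to 0.063, CENPF -0.427 to 0.064, FOXM1 -0.195 to 0.089, HMMR -0.827 to 0.013, KIF11 -0.223 to 0.303, KIF20A -0.349 to 0.059, KIF23 -0.037 to 0.402, KIF2C -0.344 to 0.045, KIF4A -0.347 to 0.182, MAD2L1 -0.477 to 0.045, MKI67 -0.454 to 0.081, NDC80 -0.439 to 0.181, NEK2 -0.170 to 0.138, NUF2 -0.394 to 0.077, NUSAP1 -0.307 to 0.239, PTTG1 -0.005 to 0.324, TOP2A -0.338 to 0.260, TPX2 -0.263 to 0.216, UBE2C -0.256 to 0.077. Those with their highest value in another fit were BUB3 -0.052 to 0.089, CDC20 -0.169 to 0.079, PLK1 -0.061 to 0.200.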
